A study of Mus musculus with 48 samples.

Results

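Enteroendocrine cells of the upper small intestine were compared between sham-operated mice on limited food and sham-operated mice fed ad libitum. The sham operation placed a suture along the stomach but removed none of it. The comparison used 10 of the 48 libraries of the mouse series, namely every duodenum library of a sham-operated mouse. Of these, 5 came from mice held at the body weight of the operated animals by limited food (weight-matched) and 5 from mice fed ad libitum, and each library was from a different mouse. All were lean male Neurod1-cre-eYFP mice, in which cells with a history of Neurod1 expression are yellow fluorescent, and all had a sham operation at about 20 weeks of age, a liquid diet around surgery and standard chow afterwards. Weight-matched mice were given their food in 2 daily portions, and both groups were housed singly. The amount of food and the timing of meals thus differed together and cannot be told apart here. The time of day at which each group was sampled is not given in the sources used here. The animals went without food overnight 6 weeks after the operation, received 3 g/kg glucose by gavage and were killed about 15 min later, so both groups were fasted and then given glucose when sampled. Fluorescent cells negative for the leukocyte antigen CD45 were sorted from the top 5 cm of the small intestine, here called duodenum, and their RNA was sequenced. The rest of the series held VSG (vertical sleeve gastrectomy) libraries and the ileum and colon of largely the same mice, and ileum and colon are used here only for comparison: all 5 weight-matched and 4 of the 5 ad libitum mice also gave ileum and colon libraries.

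Enteroendocrine cells are scattered hormone cells of the gut epithelium that sense nutrients and release peptides such as GIP, CCK and secretin from the duodenum. Less food, and a shift in when it is eaten, is known to act on peripheral tissues through the feeding-entrained circadian clock, through glucocorticoids and metallothioneins, and through the programs for burning or making fat. Epithelial clocks in particular follow meal times, so that the phase at which a tissue is sampled sets the level of clock output genes.

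Sequencing depth ranged from 5254340 to 17182463 counts assigned to genes, and values are given as counts per 1000000 (CPM) on effective library sizes. Enteroendocrine identity was plain in 9 libraries. The summed level of 6 enteroendocrine markers (Chga, Chgb, Neurod1, Scg2, Scg3 and Insm1) lay between 40554 and 68455 CPM in the ad libitum group and between 35713 and 59567 CPM in 4 weight-matched libraries, but it was 11333 CPM in the weight-matched library of mouse 27. That library instead held 78360 CPM of 24 enterocyte markers against 9409 to 22883 CPM in the other 9, and 4017 CPM of 6 Paneth cell markers against 127 to 868 CPM. Its 10 immune markers summed to 272 CPM against 4.62 to 34.9 CPM, although CD45-positive cells were gated out, and its 7 goblet and 7 tuft cell markers were also the highest of the 10 libraries. Markers of pancreatic acinar cells and of stroma summed to under 2 CPM in every library, with the acinar genes at 0 in mouse 27. The ileum library of mouse 27 held 15592 CPM of the enterocyte markers, inside the 11960 to 26768 CPM of the other 4 weight-matched ileum libraries, and its colon library held 1699 CPM against 1754 to 1908 CPM. The duodenum library of mouse 27 was known beforehand, from earlier results of these data, to be rich in enterocyte transcripts. The counts and fold changes of the duodenum are therefore mostly given with and without it. In bulk samples such as these, fewer cells of a type and less RNA per cell cannot be told apart.

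**Figure D1:**
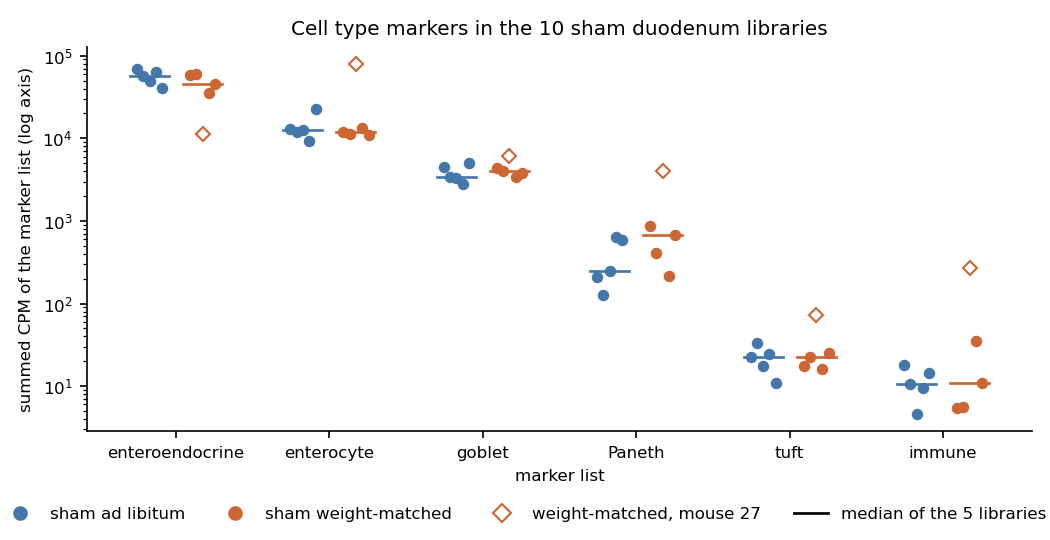
Summed CPM of 6 lists of cell type markers (log axis) in each of the 10 libraries, with ad libitum in blue, weight-matched in orange, mouse 27 as an open diamond and a bar at the median of each group of 5. Mouse 27 sits below the other libraries for enteroendocrine markers and above them for the other 5 lists, most widely for immune and Paneth cell markers.

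No gene passed the threshold of adjusted p under 0.05 between weight-matched and ad libitum mice in the duodenum, 0 of 15126 genes tested or 0%, by edgeR's quasi-likelihood test. DESeq2 called 3 genes, Dbp, Slc40a1 and Papss2, and called 0 when the library of mouse 27 was left out. With edgeR and 10 libraries 990 genes had an unadjusted p under 0.05, 775 higher in the weight-matched group (5.12% of the genes tested) and 215 lower (1.42%). In 692 of the 775 the library of mouse 27 was the highest of the 10. Without it the same count was 417 of 15457 genes, 210 higher (1.36%) and 207 lower (1.34%), none of them past the adjusted threshold, where the lowest adjusted p was 1. Leaving out weight-matched mouse 16, 21, 29 or 31 in its place gave 2, 3, 2 and 2 genes past it, with Slc40a1 among them each time. Groups that did not overlap at all were found for 31 genes above (0.205%) and 44 below (0.291%) with 10 libraries. Without mouse 27 there were 112 above (0.725%) and 144 below (0.932%). The values that follow are thus descriptions of genes that did not pass correction, except where another tool or region is named. The median log2 fold change of all tested genes was 0.01, and it was -0.02 without mouse 27.

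**Figure D2:**
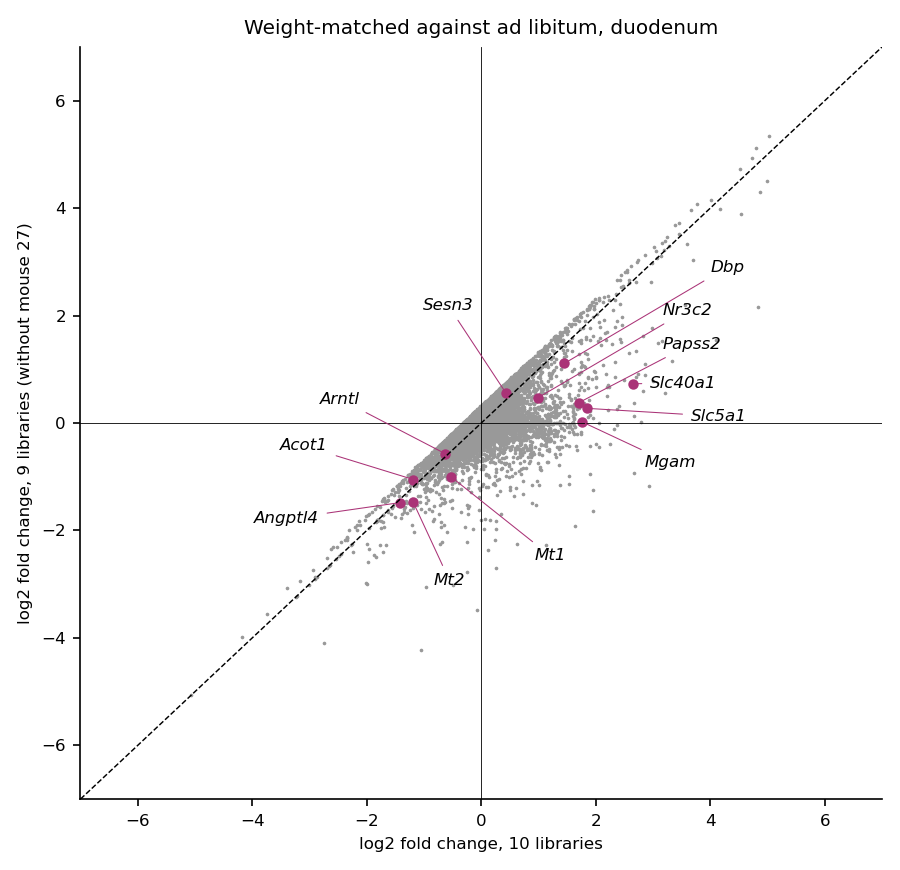
Log2 fold change of each tested gene (weight-matched against ad libitum) with all 10 libraries on the horizontal axis and with 9, mouse 27 left out, on the vertical axis; the dashed line marks equal values. Slc40a1, Papss2, Slc5a1 and Mgam lie far to the right of the line, with 2.66 against 0.73 for Slc40a1, whereas Dbp, Arntl, Acot1 and Angptl4 lie near it.

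Clock genes gave the difference of lowest p. Dbp, a transcription factor of the PAR bZIP family whose transcription follows the clock, read 9.15, 5.55, 8.52, 8.19 and 7.65 CPM in the ad libitum libraries and 16.1, 18.1, 39.5, 12.6 and 20 CPM in the weight-matched ones, the 39.5 being mouse 27. All weight-matched libraries were above all ad libitum libraries. Its log2 fold change was 1.45 (standard error, SE, 0.28, adjusted p = 0.0857 with edgeR), and it passed with DESeq2 (adjusted p = 0.00272). The log2 fold change was 1.11 (SE 0.27) without mouse 27, and without that library DESeq2 called 0 genes in the duodenum. Dbp (chromosome 7, 45705088 to 45710203, plus strand, GRCm38) overlaps Sphk2 on the opposite strand. Sphk2 itself had a log2 fold change of 0.23 (SE 0.15), and of -0.02 without mouse 27.

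Arntl, which encodes the clock activator BMAL1, stood on the other side. Its levels were 22.6, 26.4, 23.5, 21.6 and 17.8 CPM in ad libitum mice and 17.6, 17.6, 11.7, 15.1 and 9.84 CPM in weight-matched mice, so the groups were just separate. The log2 fold change was -0.64 (SE 0.23, adjusted p = 0.617 with edgeR) and -0.57 without mouse 27. The repressors Nr1d1 and Nr1d2, the REV-ERB nuclear receptors, which hold Arntl down, were on the side of Dbp. Nr1d1 read 24.4 to 44.7 CPM in ad libitum and 31.6 to 43.6 CPM in 4 weight-matched libraries, with 105 CPM in mouse 27, and its log2 fold change of 0.71 (SE 0.25) was 0.27 without that library. For Nr1d2 the ranges were 23.5 to 40.5 and 29.2 to 66.5 CPM, and the log2 fold change was 0.48 (SE 0.17), or 0.28 without mouse 27. Both sets of ranges overlapped. Nr1d1 overlaps Thra on the opposite strand, and Thra had a log2 fold change of 0.02. Among the 19 clock genes tested, 4 were higher and 1 lower at an unadjusted p under 0.05, against 1 and 1 without mouse 27. Over all genes tested, 5.12% were higher and 1.42% lower, and 1.36% and 1.34% without mouse 27. The median log2 fold change of the list was 0.11.

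The same genes were on the same side in the other gut regions, mostly in the same mice. Dbp was 5.05 to 12.1 CPM in ad libitum and 16.2 to 26.9 CPM in weight-matched ileum, and 19 to 36.5 against 58 to 124 CPM in colon. Its log2 differences there were 1.5 (SE 0.29, adjusted p = 0.067 with edgeR) and 1.48 (SE 0.27, adjusted p = 0.014 with edgeR). Arntl fell in the colon by 1.36 on the log2 scale (SE 0.23, adjusted p = 0.00783 with edgeR). Dbp and Arntl were the 2 genes called in the colon, and none was called in the ileum. The difference for Arntl was -0.95 in the ileum, where 30.1 to 41.4 CPM in ad libitum faced 15.3 to 21.1 CPM in weight-matched mice. For Nr1d1 the log2 fold changes were 0.86 in ileum and 0.72 in colon. The duodenum difference minus the mean of the other 2 regions was -0.04 (SE 0.35) for Dbp and 0.52 (SE 0.28) for Arntl, each with an adjusted p of 1 in edgeR.

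**Figure D3:**
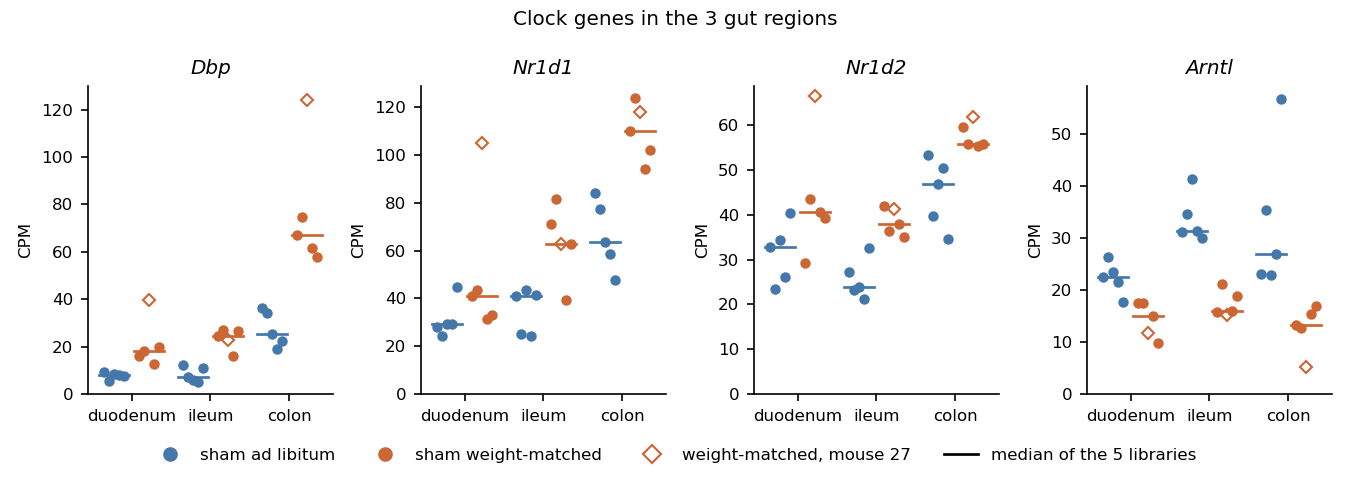
CPM of Dbp, Nr1d1, Nr1d2 and Arntl in each sham library of duodenum, ileum and colon, ad libitum in blue and weight-matched in orange, with mouse 27 as an open diamond and a bar at each median. Dbp is higher and Arntl lower in all weight-matched libraries than in all ad libitum libraries of the same region, in each of the 3 regions.

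Metallothioneins are small metal-binding proteins, and their genes respond to zinc and to glucocorticoids. Mt2 read 12.1, 21.6, 16.7, 12.2 and 25.4 CPM in ad libitum mice and 3.62, 7.79, 13.4, 2.74 and 11 CPM in weight-matched mice, where the 13.4 CPM was mouse 27. Only that library overlapped the ad libitum range. On the log2 scale the difference was -1.19 (SE 0.39, adjusted p = 0.612 with edgeR), and -1.47 (SE 0.42) without mouse 27. Mt1, its neighbour on chromosome 8, read 34.4, 55.3, 44.3, 40.9 and 62.8 CPM against 17.4, 30.2, 71.7, 18.4 and 28.2 CPM. Here mouse 27 was the highest of all 10 libraries while the other 4 weight-matched mice lay below every ad libitum mouse, so the log2 fold change was -0.52 (SE 0.29) with it and -1.01 (SE 0.27) without. In the ileum both genes were lower in every weight-matched library, 33.9 to 54.1 against 59.5 to 90.9 CPM for Mt1 and 4.32 to 10.5 against 12.5 to 24.3 CPM for Mt2, with log2 fold changes of -0.85 and -1.34. In the colon the ranges overlapped, and the log2 fold changes were -0.40 and -0.65.

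Since the pair lay on the same side in most mice, their promoters are shown from 250 bases before to 30 bases after the RefSeq transcription start (GRCm38.p6, plus strand, 5′ to 3′). Capitals mark TGCNCNC on either strand, a relaxed spelling of the core of the metal response element through which the zinc sensor MTF1 acts on these genes.
Mt1, chr8:94178839-94179118: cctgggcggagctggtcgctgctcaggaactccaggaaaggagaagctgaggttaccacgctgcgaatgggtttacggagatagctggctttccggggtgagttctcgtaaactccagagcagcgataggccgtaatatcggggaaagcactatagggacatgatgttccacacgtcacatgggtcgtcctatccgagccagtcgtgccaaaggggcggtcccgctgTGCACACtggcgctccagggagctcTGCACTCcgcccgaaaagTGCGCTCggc
Mt2, chr8:94172368-94172647: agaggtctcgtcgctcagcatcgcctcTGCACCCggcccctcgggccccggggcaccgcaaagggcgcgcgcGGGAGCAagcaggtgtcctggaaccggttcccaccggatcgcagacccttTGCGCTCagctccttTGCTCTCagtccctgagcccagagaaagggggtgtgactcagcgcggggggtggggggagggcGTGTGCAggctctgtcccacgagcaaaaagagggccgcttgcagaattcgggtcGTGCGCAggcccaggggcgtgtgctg
The Mt1 window held 3 matches and the Mt2 window 6. Of 32851 promoter windows of the same 280 bases in the table, 48.5% held at least 1 match, 6.11% held at least 3 and 0.155% held at least 6. A match is a string of letters and does not show that a factor binds there. The element was picked for its known action on these genes, so the counts of matches do not test a role of metals in the differences above.

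Among the other genes of the glucocorticoid and metallothionein list, Nr3c2, which encodes the mineralocorticoid receptor that also binds glucocorticoids, was the one with the lowest p. It read 21.5, 24, 30.2, 25 and 28.1 CPM in ad libitum and 38.8, 38, 113, 33.6 and 31.6 CPM in weight-matched libraries, without overlap and with mouse 27 far above the rest. Its log2 fold change was 0.98 (SE 0.23, adjusted p = 0.347 with edgeR), and 0.47 (SE 0.18) without mouse 27. In the ileum the groups were separate too, 23.5 to 41.1 against 44.5 to 48.5 CPM. In the colon they overlapped, 51.3 to 98.1 against 50.1 to 124 CPM, with a log2 fold change of 0.37 (SE 0.23). Klf9, a glucocorticoid-induced Krüppel-like factor, read 20.1 to 29.3 CPM in ad libitum and 27.9 to 35.7 CPM in weight-matched mice, with a log2 fold change of 0.41 (SE 0.21), or 0.35 without mouse 27. Of the 14 genes tested, 1 was higher and 1 lower at an unadjusted p under 0.05 with 10 libraries, and 1 and 3 with 9. Of all genes, 5.12% were higher and 1.42% lower with 10, and 1.36% and 1.34% with 9. The 1 higher gene of the list with 10 libraries was thus near the share over all genes. The median log2 fold change was 0.00 with 10 and -0.04 with 9.

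Genes of fat oxidation and PPAR targets divided into those that rested on mouse 27 and those that did not. Acot1, a cytosolic acyl-CoA thioesterase induced by PPAR alpha on fasting, read 22.4, 18.3, 26.9, 20.4 and 33.5 CPM in ad libitum and 6.78, 11.1, 6.50, 15.9 and 13.4 CPM in weight-matched libraries, without overlap and with mouse 27 the lowest. On the log2 scale this was -1.18 (SE 0.36, adjusted p = 0.533 with edgeR), and -1.05 without mouse 27. Acot1 has close paralogs in the same cluster, so its reads may have been split with theirs. Angptl4, a secreted inhibitor of lipoprotein lipase that is a classic PPAR target, read 12.8, 15.4, 14.7, 17.7 and 25.3 CPM against 6.89, 4.60, 7.37, 7.30 and 5.88 CPM. Here every weight-matched library was below every ad libitum library, and mouse 27 was among the others of its group. The log2 fold change of Angptl4 was -1.43 (SE 0.55, adjusted p = 0.619 with edgeR) and -1.48 without mouse 27. By contrast Ppargc1a, a coactivator of mitochondrial and oxidative genes, had a difference of 0.94 (SE 0.31) on the log2 scale that became 0.12 without mouse 27, whose level of 88.7 CPM compared with 22.8 CPM at most in the other 9. Of 24 genes tested in this list, 4 were higher and 4 lower at an unadjusted p under 0.05, and 0 and 3 without mouse 27, when the median log2 fold change was -0.26. The shares over all genes were 5.12% higher and 1.42% lower, and 1.36% and 1.34% without mouse 27. Fgf21 was not tested, as it had too few counts.

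In the ileum Angptl4 had a log2 fold change of -1.35 (SE 0.55) with overlapping ranges of 9.57 to 36 and 1.70 to 11.7 CPM. Acot1 there was 8.37 to 32.9 CPM in ad libitum and 6.94 to 14.3 CPM in weight-matched mice, a log2 fold change of -0.87 (SE 0.36). In the colon Acot1 was 0.03 (SE 0.37).

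Coq8a, an atypical kinase needed to make coenzyme Q, was a further gene with separate groups. It read 79.9, 90.2, 84.8, 96.9 and 79.5 CPM in ad libitum and 57.3, 63.1, 53.5, 58.0 and 70.5 CPM in weight-matched mice, where mouse 27 had the lowest level. The log2 fold change was -0.51 (SE 0.14, adjusted p = 0.527 with edgeR), -0.47 without mouse 27 and -0.54 in the ileum, whereas in the colon it was -0.02. Coq8a overlaps Cdc42bpa on the opposite strand. Hjurp, the chaperone that loads the centromeric histone CENP-A, read 223, 201, 218, 238 and 173 CPM against 148, 178, 112, 174 and 154 CPM. Only ad libitum mouse 32 reached into the weight-matched range, and mouse 27 was again the lowest. The log2 fold change was -0.46 (SE 0.13) or -0.36 without mouse 27. Its difference minus that of the other regions was -0.33 (SE 0.16).

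**Figure D4:**
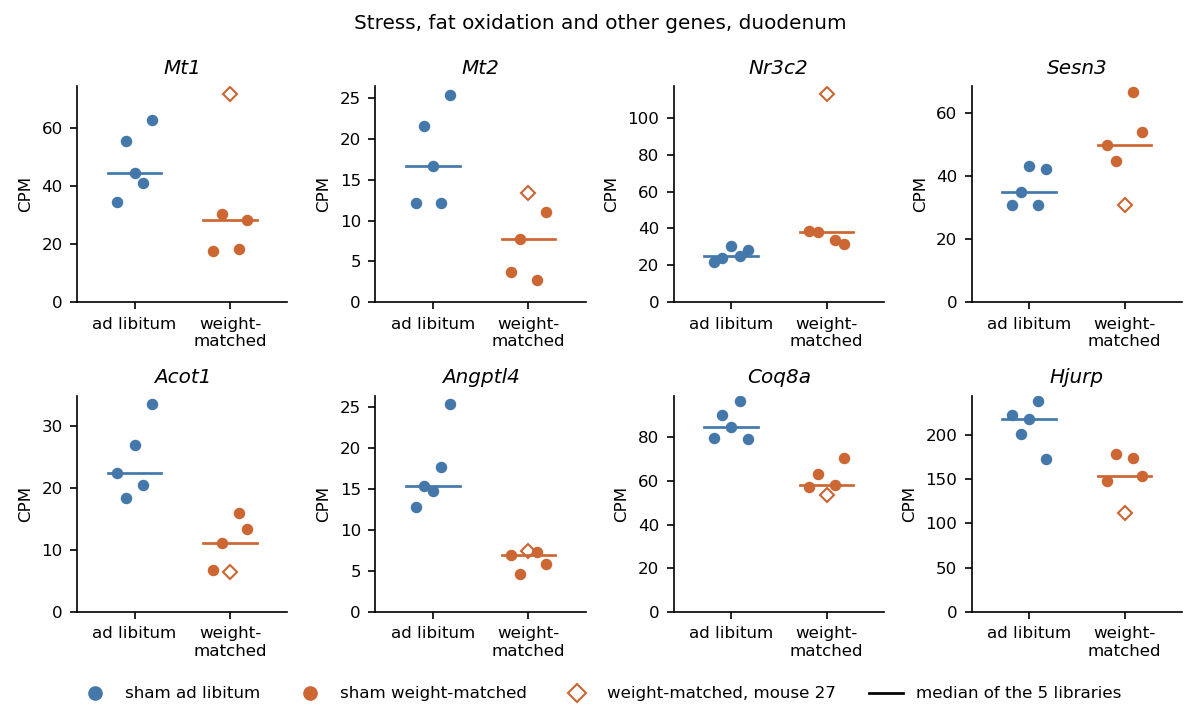
CPM of 8 genes in the 10 duodenum libraries, ad libitum in blue and weight-matched in orange, with mouse 27 as an open diamond and a bar at the median of each group. Acot1, Angptl4 and Coq8a are lower and Nr3c2 higher in all weight-matched libraries; mouse 27 is the highest of all for Mt1 and Nr3c2 and the lowest for Acot1, Coq8a, Hjurp and Sesn3.

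Among genes of lipid synthesis, Scd2, a stearoyl-CoA desaturase, read 5.16, 6.42, 14.1, 5.21 and 12.0 CPM in ad libitum and 14.3, 14.3, 23.0, 14.6 and 14.1 CPM in weight-matched mice, with a log2 fold change of 0.91 (SE 0.31) and of 0.75 without mouse 27. Ad libitum mouse 17 and weight-matched mouse 31 were both at 14.1 CPM. Elovl6, which elongates fatty acids, had a log2 fold change of 0.62 that was 0.17 without mouse 27. In all, 4 of 28 SREBP targets of sterol and fatty acid synthesis were higher at an unadjusted p under 0.05 and 0 lower, then 1 and 0 without mouse 27, with a median log2 fold change of 0.11 and 0.10. Over all genes 5.12% were higher with 10 libraries and 1.36% without mouse 27.

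Sesn3, a sestrin that restrains mTORC1 and is a FoxO target, was 30.8, 34.8, 43.1, 30.8 and 42.2 CPM in ad libitum and 49.7, 44.6, 30.6, 66.6 and 53.9 CPM in weight-matched mice. Without mouse 27, at 30.6 CPM the lowest of all, the groups were separate, and the log2 fold change was 0.43 (SE 0.17) with it and 0.56 (SE 0.16) without. In ileum and colon Sesn3 gave 0.05 and -0.20. Txnip, a glucose-responsive inhibitor of glucose uptake, read 364 to 590 CPM against 296 to 378 CPM, with a log2 fold change of -0.33 (SE 0.17), or -0.35 without mouse 27. The insulin, FoxO and autophagy list had 2 of 18 genes higher and 0 lower at an unadjusted p under 0.05 and a median of 0.08, and 1 and 0 without mouse 27. Over all genes 5.12% were higher, and 1.36% without mouse 27.

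Atf4, the transcription factor at the centre of the integrated stress response, was 119 to 175 CPM in ad libitum and 94.5 to 130 CPM in weight-matched mice, a log2 fold change of -0.39 (SE 0.17) with mouse 27 and -0.36 without. Ddit3 and Psat1, 2 of its targets, had values of -0.56 (SE 0.32) and -0.47 (SE 0.29), which were -0.63 and -0.29 without mouse 27. Slc3a2, the heavy chain of several amino acid transporters, was at 279 CPM in mouse 27 and 74.1 to 108 CPM in the other 9, so that its log2 fold change of 0.37 (SE 0.21) became -0.21. The 18 genes of the list had a median log2 fold change of -0.27, 1 lower and 0 higher at an unadjusted p under 0.05. Immediate early genes, which respond within minutes to a stimulus such as the glucose gavage given to both groups, had a median of -0.22 over 19 genes, with 1 higher and 0 lower at an unadjusted p under 0.05. The higher one was Fosl2, a subunit of AP-1, at 255 CPM in mouse 27 and 80.8 to 114 CPM in the other 9. Its log2 fold change of 0.45 (SE 0.20) became 0.03 without mouse 27, and that of Klf4 went from 0.52 (SE 0.33) to -0.20. Egr1 read 171 to 454 CPM in ad libitum and 101 to 228 CPM in weight-matched mice, a log2 fold change of -0.92 (SE 0.51), or -0.79 without mouse 27. Ier2 gave -0.68 (SE 0.35) with mouse 27 and the same without. For both the ranges overlapped and the unadjusted p was above 0.05. Without mouse 27 the median of the immediate early list was -0.29, with 1 gene higher and 0 lower at an unadjusted p under 0.05. All weight-matched libraries lay below all ad libitum ones for 1 of its 19 genes with 10 libraries and for 2 without mouse 27. Over all genes this held for 0.291% and 0.932%. Of the 15 genes of the unfolded protein response 1 was higher and 0 lower with 10 libraries, with a median of 0.05. Over all genes 5.12% were higher and 1.42% lower with 10 libraries. The 1 of 19 immediate early genes and the 1 of 15 genes here that were higher were near that share.

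Gut peptide genes did not pass in any fit of the duodenum, and 0 of 13 reached an unadjusted p of 0.05 with 10 libraries. Gip, the incretin of duodenal K cells, read 12021, 11555, 14909, 15142 and 18373 CPM in ad libitum and 22685, 9008, 8744, 29103 and 28865 CPM in weight-matched mice. Among weight-matched mice 3 were thus above and 2 below the whole ad libitum range. Its log2 fold change was 0.45 (SE 0.60), and 0.64 (SE 0.64) without mouse 27. Cck, the hormone of duodenal I cells, was 2569 to 3738 CPM in ad libitum and 3972 to 5373 CPM in 4 weight-matched libraries, with 1093 CPM in mouse 27. Leaving out that library separated the groups for Cck and took its log2 fold change from 0.34 (SE 0.37) to 0.58 (SE 0.36), still with an adjusted p of 1 in edgeR.

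Secretin (Sct) was 1085 to 1737 CPM in ad libitum and 1428 to 1819 CPM in those 4 libraries, a log2 fold change of -0.05 (SE 0.32) with mouse 27 and 0.19 (SE 0.30) without. Neurotensin (Nts), found with GLP-1 in lower gut cells, gave 0.67 (SE 0.38) and 0.87 (SE 0.39), and was the 1 peptide of 13 under an unadjusted p of 0.05 without mouse 27. Over all genes 1.36% were higher and 1.34% lower at that p without mouse 27. Sst gave 0.31 and 0.55, Pyy 0.33 and 0.58, Iapp 0.12 and 0.38, Ghrl -0.35 and -0.10, Gcg -0.14 and 0.09, Tac1 -0.30 and -0.06, and Ucn3 -0.61 and -0.36, in each case with and then without mouse 27 and with SEs between 0.35 and 0.55. Gast was uneven, with 108 and 123 CPM in ad libitum mice 13 and 17, at most 3.87 CPM in the other 3, and 0.145 to 19 CPM in weight-matched mice. Gast is made mainly in the stomach antrum. Insl5, a peptide of colonic cells, was at most 0.37 CPM in any of the 10 libraries, and no fold is given. Summed over the 13 peptides the level was 20140 to 29220 CPM in ad libitum, 20208 to 47540 CPM in 4 weight-matched libraries and 12076 CPM in mouse 27.

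Chga and Chgb, the granins of secretory granules, had log2 fold changes of -0.50 (SE 0.29) and -0.38 (SE 0.32), which were -0.26 and -0.14 without mouse 27. Chga itself was 3889 CPM in mouse 27 and 10279 to 23606 CPM in the other 9. Pcsk1, the prohormone convertase, gave -0.28 (SE 0.24), then -0.04. None of 12 granin and processing genes reached an unadjusted p of 0.05 with edgeR and 10 libraries. Without mouse 27, 2 were higher, beside 1.36% of all genes, and the list median went from -0.02 to 0.16. Of 23 enteroendocrine transcription factors none reached that p with 10 libraries either, and their median was -0.01 with mouse 27 and 0.14 without. Neurod1, whose promoter drove the label, was 142 CPM in mouse 27 and 589 to 776 CPM elsewhere. Pdx1, the duodenal and pancreatic homeobox factor, read 40.5 to 52.1 CPM in ad libitum and 45.2 to 137 CPM in weight-matched mice, a log2 fold change of 0.74 (SE 0.37). The 137 CPM was mouse 27, and without it the value was 0.42 (SE 0.37).

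For nutrient-sensing receptors the list median was 0.23 over 14 genes, and 0.39 without mouse 27. With 10 libraries 1 gene, Lpar5, was higher at an unadjusted p under 0.05 in edgeR, near the 5.12% of all genes. Lpar5 was at 23.3 CPM in mouse 27 and 4.61 to 9.44 CPM elsewhere, and its log2 fold change of 0.59 (SE 0.28) became 0.07 without that library. Without mouse 27 the 1 higher gene was Cnr1, beside 1.36% of all genes. Cnr1, the cannabinoid receptor of I cells, read 45.4 to 103 CPM in ad libitum and 114, 63.2, 172 and 144 CPM in 4 weight-matched libraries, with 47.0 CPM in mouse 27. Its log2 fold change went from 0.62 (SE 0.39) to 0.81 (SE 0.39) on leaving that library out. Ffar3, a short-chain fatty acid receptor, gave 0.47 (SE 0.47) and 0.67. Of the 7 serotonin genes 1 was higher with mouse 27 and 0 without, beside 5.12% and 1.36% of all genes.

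Mouse 27 was the highest library in each of the 10 higher genes of lowest p, Dbp and Nr3c2 included. Slc40a1, the basolateral iron exporter ferroportin, read 30.8, 32.8, 24.8, 20.5 and 27.9 CPM in ad libitum and 56.0, 41.4, 685, 55.1 and 30.1 CPM in weight-matched mice. The log2 fold change was 2.66 (SE 0.54, adjusted p = 0.122 with edgeR and 0.00251 with DESeq2), and it was 0.73 (SE 0.32) without mouse 27, where 3 of 4 weight-matched libraries were still above the ad libitum range. Papss2, which makes the sulfate donor PAPS, was 215 to 397 CPM in ad libitum, 214 to 499 CPM in 4 weight-matched libraries and 3334 CPM in mouse 27, so that its log2 fold change of 1.70 (SE 0.39) became 0.38 (SE 0.22). Slc5a1, the sodium-glucose cotransporter SGLT1, was 5133 CPM in mouse 27 and 308 to 625 CPM in the other 9. Its log2 fold change of 1.84 (SE 0.48) became 0.27 (SE 0.31). Sult6b2 (2.71, then 0.86), Aldh4a1 (1.56, then 0.45) and Kalrn (1.79, then 0.37) followed the same course.

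Among enterocyte markers 13 of 24 were higher at an unadjusted p under 0.05 with 10 libraries and 0 of 24 with 9. Over all genes 5.12% were higher with 10 and 1.36% with 9. The median log2 fold change of these markers went from 0.89 to -0.19. Since mouse 27 was singled out for its enterocyte transcripts, this contrast was built in. Mgam, a brush border maltase-glucoamylase, gave 1.75 (SE 0.48) and 0.03 (SE 0.29), and Alpi, intestinal alkaline phosphatase, 1.62 and 0.07. The fructose transporter Slc2a5 gave 1.40 and 0.36 and the basolateral glucose transporter Slc2a2 1.96 and 0.09. Defa29 and Defa34, Paneth cell defensins, gave 2.98 and 4.83, then 1.77 and 2.17. The defensin genes are near-identical copies whose reads may have been split between them, so these are uncertain. Defa29 reached 5.96 CPM in weight-matched mouse 16 as well as 19.7 CPM in mouse 27, against 0 to 1.64 CPM in ad libitum mice.

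Lists whose median was lower without mouse 27 are given beside the 5.12% of all genes that were higher with it and the 1.36% without. They included the xenobiotic enzymes (8 of 25 higher with it and 0 without, median log2 fold change 0.55 and -0.18), glucose and amino acid handling (6 of 15 and 0, 0.37 and -0.01) and the interferon response (2 of 10 and 0, 0.52 and 0.07). MHC class II had 3 of 7 higher and then 0, with medians of 1.46 and 0.39, mucosal defence 1 of 16, near the share over all genes, and then 0, with 0.39 and 0.00, and the mitochondrially encoded subunits 2 of 7 and then 0, with 0.38 and -0.04. Of 13 crypt and cell division genes 0 were higher or lower with either set. The summed MHC class II level in mouse 27 was 3439 CPM against 55.5 to 703.7 CPM in the other 9, and its mitochondrial sum 23175 CPM against 6655 to 10913 CPM. How far other cell types in that library made up these differences was not tested.

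**Figure D5:**
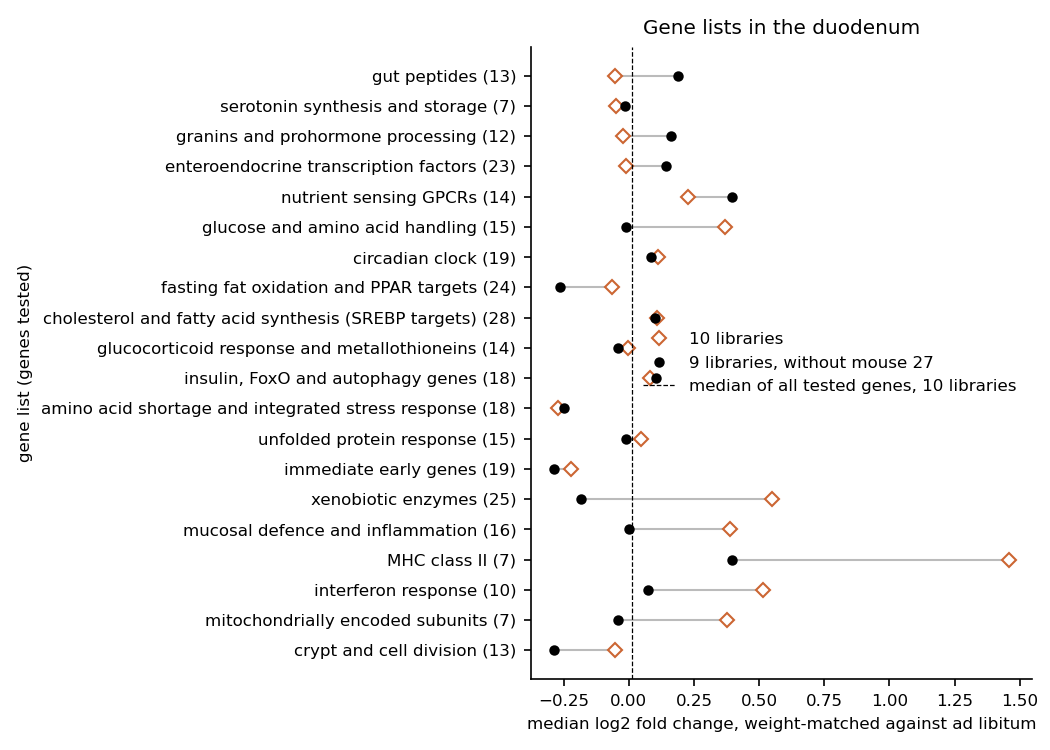
Median log2 fold change (weight-matched against ad libitum) of 20 gene lists in the duodenum with 10 libraries (open diamonds) and with mouse 27 left out (black points), with the number of genes tested in brackets and the median of all tested genes as a dashed line. The MHC class II, xenobiotic, interferon, mucosal defence, transport and mitochondrial lists lie at 0.37 or above with 10 libraries, and of these MHC class II alone stays above 0.1 without mouse 27.

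The remaining genes of lowest p were mostly of low level. Htr1b, a serotonin receptor, had 24 counts over the ad libitum group, in 4 of its 5 libraries, and 0 in the weight-matched group, which taken against a floor of 3 counts over that group was at least 6.07-fold lower. Gja1, the gap junction protein connexin 43, read 0.275 to 1.82 CPM against 0 to 0.147 CPM. Vwa5b1 and Iqsec3 had 0 counts in all ad libitum libraries and 18 and 14 counts in the weight-matched group, at least 7.91-fold and 6.15-fold higher on the same floor. These counts were uneven over the weight-matched mice 16, 21, 27, 29 and 31. Vwa5b1 read 1.17, 0.6, 0.145, 0.182 and 0 CPM in them, and Iqsec3 read 1.05, 0, 0.145, 0.73 and 0 CPM. Ppp2r2c, a regulatory subunit of protein phosphatase 2A, was 0.0549 to 0.447 CPM against 0.3 to 2.80 CPM.

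Of better covered genes, Stk38, a kinase of the Hippo family, read 101 to 141 CPM in ad libitum and 65.5 to 131 CPM in weight-matched mice (log2 fold change -0.44, SE 0.13, and -0.35 without mouse 27). Smyd3, a lysine methyltransferase, and Gtf2ird1, a transcription factor, had -0.54 (SE 0.16) and -0.41 (SE 0.13), then -0.45 and -0.32. Tppp, a tubulin-binding protein, had -0.79 (SE 0.25), then -0.71. In each of these 4 genes mouse 27 was the lowest library. Without mouse 27, Tpd52l2 and Mrpl21, the latter a mitochondrial ribosomal protein, had -0.55 (SE 0.16) and -0.92 (SE 0.28). Their ranges overlapped with 10 libraries and still did so without mouse 27.

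The weight-matched minus ad libitum difference in the duodenum departed from the mean of that in ileum and colon for 0 of 15126 genes, or 0%. This was at an adjusted p under 0.05 by edgeR, with 626 genes at an unadjusted p under 0.05 and 6 called by DESeq2. Without the duodenum library of mouse 27 the counts were 0 with edgeR, with 362 at an unadjusted p under 0.05, and 0 with DESeq2, with 416. The 6 DESeq2 calls were AY761184, Defa17, Defa29, Defa30, Itln1 and Mmp7, of which Defa30, Itln1 and Mmp7 are among the Paneth cell markers. Itln1, a Paneth and goblet cell lectin, was 912 CPM in the duodenum library of mouse 27 and 42.9 to 221 CPM in the other 9. In the ileum the weight-matched group lay on the lower side, at -1.54 (SE 0.54) for Defa29 and -1.27 (SE 0.56) for Itln1.

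Libraries carried 1 of 2 index names, D501 in 3 ad libitum and 1 weight-matched library (mouse 27) and D502 in 2 and 4. Within D502 alone the log2 fold changes were 1 for Dbp, -0.58 for Arntl, -1.19 for Mt2, -0.85 for Mt1, -1.02 for Acot1, -1.40 for Angptl4, -0.54 for Coq8a and 0.36 for Nr3c2, and no gene passed the adjusted threshold there in edgeR, with 591 at an unadjusted p under 0.05. D501 holds 1 weight-matched library, so no within-index value with an error could be had for it.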

How the data were processed

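RNA of sorted cells was sequenced as single-end reads from a stranded total RNA kit. The authors aligned reads with STAR 2.5.1 to GRCm38, per the labels, and deposited 1 table of raw counts per Ensembl gene for 48 libraries. Whether counting used strand is not given in the sources used here, so genes that overlap another on the opposite strand (Arntl, Coq8a, Dbp, Ddit3, Elovl6, Ghrl, Gtf2ird1, Htr1b, Mmp7, Mrpl21, Mt2, Neurod1, Nr1d1, Nr3c2 and Txnip among those named) are uncertain. Of 53465 genes, 53360 were matched to GENCODE M21.

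Counts were analysed with edgeR 4.0.16 in R 4.3.3. Genes were kept by filterByExpr over 9 groups (surgery group by region), scaled by TMM and fitted by quasi-likelihood over all 48 libraries, as 15126 genes. The contrast was weight-matched minus ad libitum in the duodenum, with Benjamini-Hochberg adjustment over all genes tested. Simulated data with changed genes were used to check the fit. Alternatives used DESeq2 1.42.0, limma 3.58.1 with the mouse as a random block, other filters and scalings, fewer libraries and an index term. No pairs of libraries within a group agreed within sampling noise, the lowest chi-square per gene being 10.4. The replicate number is the mouse, which pairs regions but not surgery groups. Mice are separate animals. Deviations of libraries of the same mouse had a median correlation of 0.105 over 46 pairs.

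The libraries compared, the gene lists and the markers were chosen with earlier results of these data known. Genes were named by rule, the 10 of lowest p per direction, the 5 of lowest p without mouse 27, up to 4 per list and the gut peptides. AY761184 and Defa17 were named after their values were seen. Some results on withheld items are not reported here.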

Additional observations from a re-analysis of the deposited data

Results flagged for a closer look

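In groups of 5 libraries, a value was marked where the gap between the highest or lowest library and its neighbour, as a share of the group's range, passed Dixon's critical value of 0.71. Chance marks about 1 in 20 groups, and 19 marks were found in 82 groups, 15 of them for the weight-matched library of mouse 27. That library had been singled out beforehand as rich in enterocyte transcripts, and some lists share genes with the enterocyte markers. Its marks are therefore a description and not independent evidence that it is unlike the rest. For the same reason the number of marks cannot be weighed against chance. For summed markers its ratios were 0.968 for enterocyte (78360 CPM), 0.828 for Paneth (4017 CPM), 0.84 for tuft (72.6 CPM) and 0.889 for immune cells (272 CPM). For summed gene lists they were 0.988 for xenobiotic enzymes, 0.948 for glucose and amino acid handling, 0.923 for enteroendocrine transcription factors (lowest, 1089 CPM), 0.875 for fat oxidation, 0.827 for MHC class II, 0.76 for mucosal defence and 0.742 for mitochondrial subunits. For single genes they were 0.911 for Nr3c2, 0.837 for Nr1d1, 0.765 for Mt1 and 0.725 for Dbp.

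Ad libitum libraries gave the other 4. Mouse 13 had the deepest library, at 17182463 counts (0.833). Mouse 32 had the highest enterocyte sum of its group, at 22883 CPM (0.74), and the highest Nr1d1, at 44.7 CPM (0.763). Mouse 19 had the lowest sum of the glucocorticoid and metallothionein list, at 744 CPM (0.748).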

How the results depend on the processing

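The count of 0 genes in the duodenum was 0 in 17 of 22 alternatives, among them limma voom with a replicate block for the mouse (0 genes, with 653 at an unadjusted p under 0.05). DESeq2 gave 3. Leaving out 1 library gave 0 to 3, the exceptions to 0 being weight-matched mouse 16 (2), 21 (3), 29 (2) and 31 (2), with Slc40a1 called in all 4 cases and Dbp in 3. The count for duodenum against the mean of ileum and colon was 0 in 17 of the 18 alternatives run for it and 6 with DESeq2. Of these, DESeq2 and limma with a replicate block, both without mouse 27, were chosen after seeing the data (0 genes each, with 416 and 481 at an unadjusted p under 0.05). Counts at an unadjusted p under 0.05 ran from 364 with the 10 libraries alone to 2581 without a filter, 1944 with an index term and 417 without mouse 27. The cause was not tested.

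Over the alternatives Dbp ranged from 1 to 1.59, Arntl from -0.72 to -0.53, Mt2 from -1.58 to -0.94, Mt1 from -1.01 to -0.32, Angptl4 from -1.53 to -1.25 and Acot1 from -1.36 to -1.02 on the log2 scale. Of the 69 genes recomputed, 9 changed sign anywhere. Gcg ranged from -0.396 to 0.0884 on leaving out 1 library and was 0.11 with DESeq2, 0.0193 with limma and a replicate block and 0.10 with the sham duodenum libraries only, all without mouse 27. In the same order Sct ranged from -0.17 to 0.19 and was 0.22, 0.17 and 0.20, and it was 0.37 within D502. Sst ranged from -0.0437 to 0.55, and was -0.0137 with the replicate block and -0.35 with the index term. Cck was -0.0776 with the index term, and Neurod1 was 0.0207 within D502. On leaving out 1 library Klf4 ranged from -0.198 to 0.70 and Slc3a2 from -0.209 to 0.498, and without mouse 27 they were -0.175 and -0.183 with DESeq2, -0.155 and -0.226 with limma and a replicate block and -0.188 and -0.20 with the sham duodenum libraries only, while Slc3a2 was -0.139 within D502. Pyy ranged from -0.0638 without weight-matched mouse 16 to 0.576. Iapp ranged from -0.331 to 0.382, and was -0.102 with the replicate block, -0.609 with the index term and -0.112 within D502.

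With 5 mice a group and 1 unlike the rest, the duodenum differences described did not pass correction over 15126 genes in edgeR with all 10 libraries. A p that misses the threshold does not show equal levels. Low genes such as Htr1b rest on few counts.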
